A study of Mus musculus with 12 samples.

Results

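Keratins, the intermediate filament proteins of epithelial cells, were measured in RNA-seq libraries of mesenchyme that had been freed from the epithelium of the embryonic mouse bladder and urethra. Every gene symbol made of Krt and a number was taken, which gave 50 of the 55228 genes listed. The question was how much keratin RNA these mesenchyme libraries held, and of which epithelial kind. All libraries came from untreated, wildtype, female CD-1 embryos, and cold trypsin followed by dissection with forceps had separated the layers. The 4 groups were E18.5 bladder, E18.5 urethra, E14.5 bladder and E14.5 urethra mesenchyme, with the stage in days after conception. Each group had 3 libraries, each from the pooled embryos of 1 litter, from 3 litters for each stage and tissue.

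Keratins work in pairs. A type I and a type II keratin join into a heterodimer, and these build the filaments that link desmosomes and hemidesmosomes across an epithelial sheet. Which pair a cell makes depends on its kind. Simple epithelia use Krt8 and Krt18 with Krt7, Krt19 or Krt20, basal cells of stratified epithelia use Krt5 with Krt14 or Krt15, and the layers above them use Krt4 with Krt13 in moist linings or Krt1 with Krt10 in skin. Bladder urothelium combines basal keratins in its lower cells with simple ones in its upper cells, and Krt20 marks its superficial umbrella cells. Mesothelium, the thin covering of abdominal organs, is also known for Krt7, Krt8, Krt18 and Krt19.

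Levels are in CPM, counts scaled by the TMM-corrected library total, and totals ranged from 21495169 to 36349777 counts. Log2 differences stand with their SE and are positive for a higher level in bladder or at E18.5, and a call means an adjusted p under 0.05 in edgeR's quasi-likelihood test over the 18805 genes that passed its low-count filter. Mesenchyme markers were high in every library, in keeping with the label: the 8 genes of that list summed to 30650 ± 2771, 17430 ± 1156, 21640 ± 3693 and 9542 ± 2242 CPM in E18.5 bladder, E18.5 urethral, E14.5 bladder and E14.5 urethral libraries (SD, n = 3 each). General epithelial markers (14 genes, among them Epcam and Cdh1) were present in every library and summed to 2517 ± 399.8, 1437 ± 197, 262 ± 233 and 504 ± 159 CPM in the same order. The last 2 means were 130.8 and 413 CPM without replicate 1. Replicate 1 of both E14.5 groups stood apart, with the highest sums of epithelial markers and of keratins in its group. Fits without E14.5 replicate 1 leave out libraries that are extreme in the values under test, so their calls and adjusted p are description only.

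Of the 50 keratins, 46 had at least 1 count in some library and 24 passed the filter, 12 of the 26 type I and 12 of the 24 type II genes. Krt40, Krt72, Krt73 and Krt81 had 0 counts in all 12 libraries. The 26 untested members reached at most 24 counts in a library and a group mean of 0.439 CPM, both in Krt77. By role, all 5 simple and all 3 basal keratins were tested, against 3 of 4 mucosal suprabasal ones, 3 of 5 of the cornifying layers, both of the activation and periderm class, 1 of 9 of the inner root sheath and companion layer, 2 of 13 of hair and nail, 5 of 8 others, and not Krt12 of the cornea. A mean of at least 5 CPM in some group was reached by 18 keratins, and of at least 1 CPM by 21.

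Late mesenchyme libraries held far more keratin RNA than early ones. The 50 genes together had 8442, 6536 and 9224 CPM in the E18.5 bladder libraries and 4174, 6334 and 5138 CPM in the E18.5 urethral libraries. At E14.5 they had 1187, 324 and 305 CPM in bladder and 2010, 742 and 893 CPM in urethral libraries. All 6 late libraries lay above all 6 early ones, and the bladder libraries were above the urethral ones at E18.5. At E14.5 the compartments overlapped, through bladder replicate 1: without replicate 1 of both groups the early means were 314.4 CPM in bladder and 817 CPM in urethra, against 605 and 1215 CPM with it. In bulk libraries, fewer cells of a type and less RNA per cell cannot be told apart. The counts of E14.5 and E18.5 were deposited separately. Any difference in handling between the stages cannot be told apart from the stage itself.

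**Figure D1:**
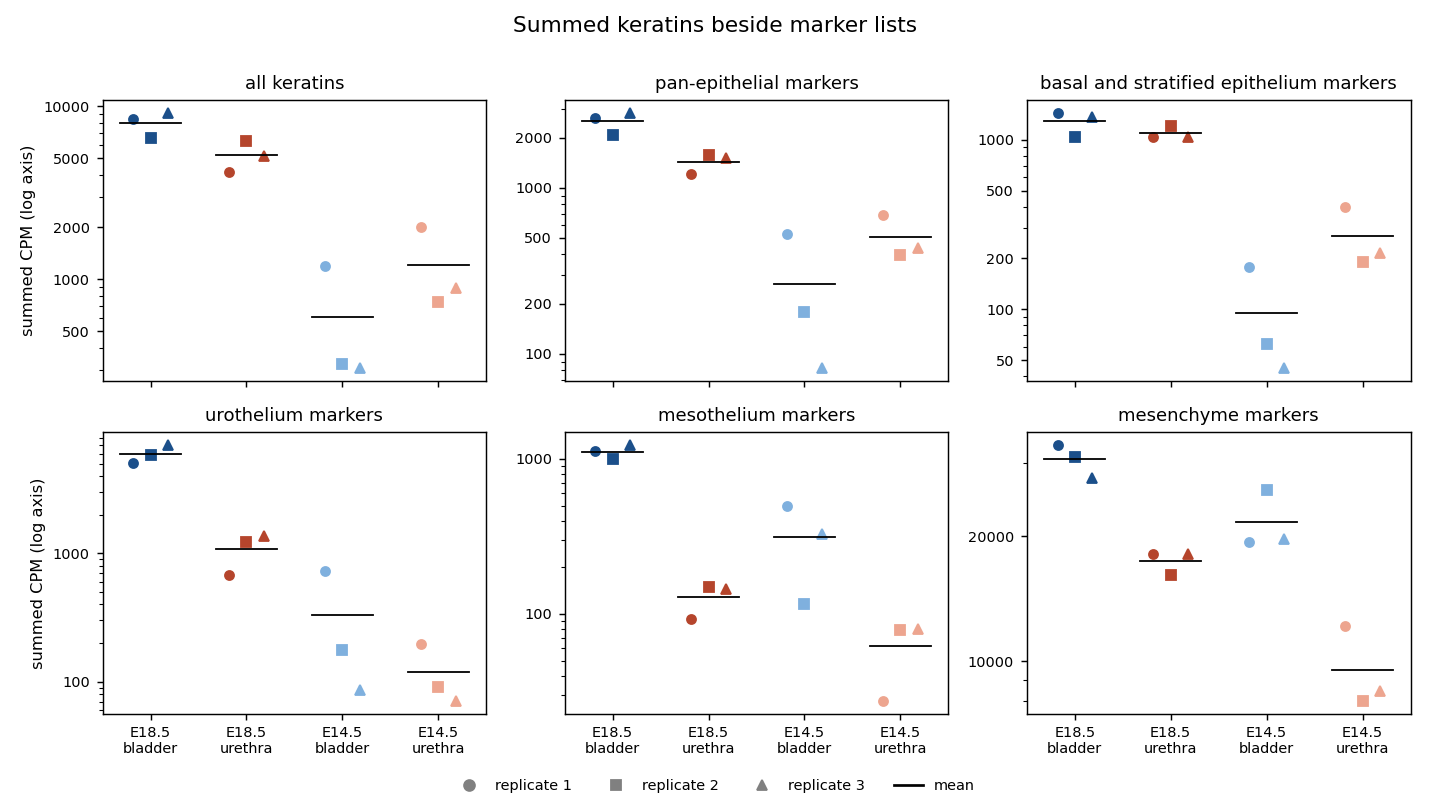
Summed CPM of the 50 keratins and of 5 marker lists in each library, on log axes, with symbols for replicates and a line at the mean of 3. The keratins and the general epithelial markers are highest at E18.5, with E14.5 replicate 1 above replicates 2 and 3, while the mesothelium markers are higher in bladder than in urethra at both stages.

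The kind of keratin differed between the compartments. Divided by the summed exon length of each gene, so that genes can be set beside each other, the simple epithelial class made up 65.3% ± 7.03 of the keratin level in E18.5 bladder and 29.1% ± 3.85 in E18.5 urethral libraries (SD, n = 3 each). At E14.5 it made up 80.4% ± 1.98 in bladder and 30.3% ± 6.39 in urethral libraries. Each bladder library had a larger simple share than any urethral library of its stage. Basal keratins took 31.5% ± 6.5 in E18.5 bladder against 47.4% ± 2.71 in E18.5 urethral libraries, and 14.3% ± 3.48 in E14.5 bladder against 58.7% ± 3.65 in E14.5 urethral libraries. The mucosal suprabasal class, mainly Krt4 and Krt13, had 2.89% ± 0.57 in E18.5 bladder and 19.1% ± 0.855 in E18.5 urethral libraries, and 1.48% ± 0.719 in E14.5 bladder and 6.21% ± 4.13 in E14.5 urethral libraries. These shares are descriptions with no test. The exon lengths of Krt7 (7049 bases) and Krt1 (4415 bases) are long for keratins, which lowers their levels per kb.

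**Figure D2:**
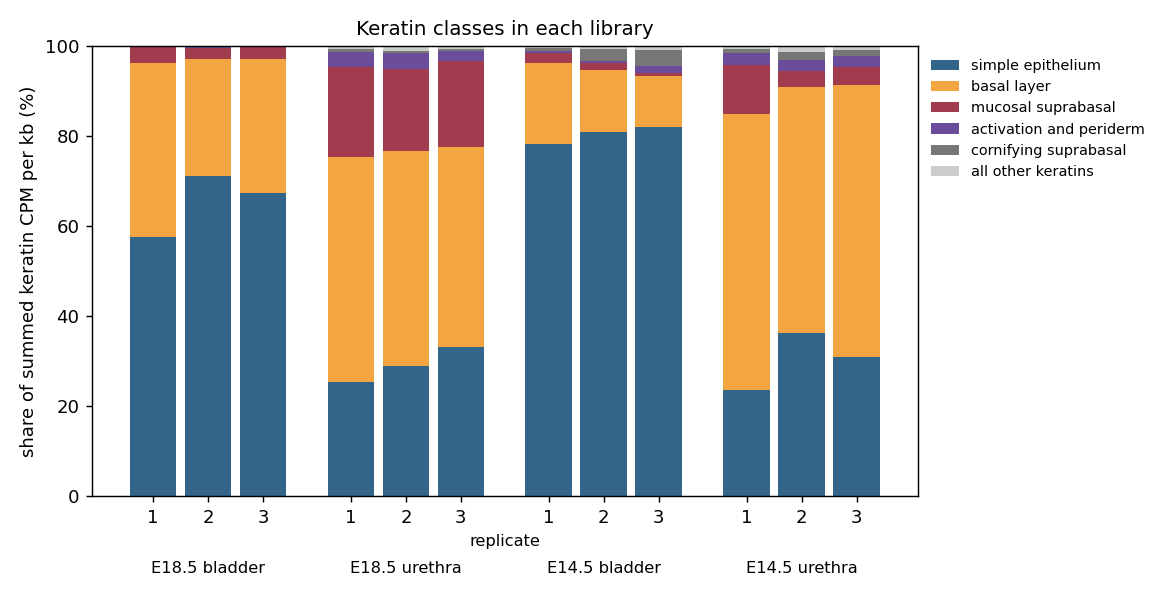
Share of the summed keratin level per kb (%) taken by each keratin class in each of the 12 libraries. Simple keratins fill 57.5% to 82.1% of each bladder bar and 23.6% to 36.3% of each urethral bar, and the mucosal suprabasal share is largest in the E18.5 urethral bars (18.2% to 19.9%).

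The order of the single keratins per kb of exon showed the same split. In E18.5 bladder libraries Krt18 (899 ± 217 CPM per kb), Krt8 (834 ± 158), Krt19 (653 ± 181), Krt15 (639 ± 175) and Krt5 (522 ± 161) led, and for each pair of neighbours in that order the ranges of 1 SD around the means overlapped. In E18.5 urethral libraries Krt15 (748 ± 145 CPM per kb) stood above Krt5 (373 ± 65.8), Krt4 (369 ± 48.1) and Krt19 (288 ± 47.4). At E14.5 the bladder order began with Krt8 (79.3 ± 70.0 CPM per kb), Krt19 (72.8 ± 56.0) and Krt18 (68.2 ± 58.0), which do not differ beyond their spread. The E14.5 urethral order began with Krt15 (231 ± 126 CPM per kb) and Krt5 (127 ± 88.3).

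At E18.5, bladder mesenchyme libraries were higher in 4 keratins, all of simple epithelium (Krt7, Krt8, Krt18 and Krt20), and lower in 10 (Krt1, Krt2, Krt10, Krt13, Krt16, Krt17, Krt23, Krt36, Krt75 and Krt79), of 24 tested. Over all genes tested, 18.52% were called higher and 16.2% lower in this comparison. The median log2 difference was -1.41 over the 24 keratins and 0.047 over all genes. Krt8, the type II keratin of simple epithelia, had 1373, 1551 and 1976 CPM in E18.5 bladder libraries, against 312, 586 and 511 CPM in E18.5 urethral libraries. Its partner Krt18 had 976, 1299 and 1600 CPM in E18.5 bladder libraries, against 145, 298 and 335 CPM in E18.5 urethral libraries. Every bladder library was above every urethral one for both, with log2 differences of 1.80 ± 0.52, adjusted p = 0.0197, for Krt8 and 2.32 ± 0.53, adjusted p = 0.00568, for Krt18. The 2 genes lie side by side on chromosome 15, the only place where a type I keratin sits among the type II genes. Of the 100-base windows of Krt8's exons, 17.1% also occur in Krt8-ps or Gm36026, so part of its count could have been divided with them.

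Krt7, a keratin of simple and transitional epithelia, had 1147, 891 and 1217 CPM in E18.5 bladder libraries, against 228, 434 and 354 CPM in E18.5 urethral libraries, a log2 difference of 1.68 ± 0.46, adjusted p = 0.0156. Krt20, the umbrella cell keratin, had 47.4, 103 and 134 CPM in E18.5 bladder libraries, against 10.6, 37.8 and 17.8 CPM in E18.5 urethral libraries, with a difference of 2.11 ± 0.64, adjusted p = 0.0257. The 2 groups did not overlap for either gene, though the lowest Krt20 library of bladder and the highest of urethra were close. Krt19, a keratin of simple and ductal epithelia, had 1463, 830.3 and 1340 CPM in E18.5 bladder libraries, against 437, 609 and 555 CPM in E18.5 urethral libraries. It was not called (1.18 ± 0.50, adjusted p = 0.0903), but it was with the replicate number as a block (1.16, adjusted p = 0.00665). Without E18.5 urethral replicate 2, Krt20 differed by 2.74 (adjusted p = 0.0204). The call of Krt20 was lost without E18.5 bladder replicate 2 or 3 or urethral replicate 1 or 3 (adjusted p = 0.0666, 0.101, 0.0996 and 0.0911), that of Krt8 without bladder replicate 3 or urethral replicate 1 or 3 (0.0635, 0.082 and 0.054), and that of Krt7 without urethral replicate 1 (0.0651). With no low-count filter only Krt18 of the 4 was called.

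Most of the keratins that were lower in E18.5 bladder than in urethral libraries are known from stratified epithelia, skin and hair. Krt13, the type I keratin of the cells above the basal layer in moist linings, had 4.56, 5.95 and 3.52 CPM in E18.5 bladder libraries, against 181, 302 and 166 CPM in E18.5 urethral libraries. Its log2 difference of -5.55 ± 0.39, adjusted p = 3.12e-06, was the largest among keratins with counts in every library. Krt17, known from periderm, hair follicles and wounded epithelium, had 3.33, 4.72 and 1.95 CPM in E18.5 bladder libraries, against 114, 166 and 90.1 CPM in E18.5 urethral libraries, a difference of -5.23 ± 0.57, adjusted p = 6.37e-05. Its class partner Krt16, which is induced in injured epidermis, had 0.224, 0.107 and 0.096 CPM in E18.5 bladder libraries, against 1.015, 8.61 and 1.99 CPM in E18.5 urethral libraries (-4.70 ± 0.86, adjusted p = 0.00166). E18.5 urethral replicate 2 was the highest of its group in all 3. Krt6a, a type II partner of Krt16 and Krt17 that lies outside the set by its letter suffix, had 29, 9.28 and 11.5 CPM in E18.5 bladder libraries, against 153, 331 and 157 CPM in E18.5 urethral libraries (-3.68 ± 0.81, adjusted p = 0.00466). Without that library the difference of Krt16 was -3.35 (adjusted p = 0.00313). Krt16 shares 24.3% of its windows with Krt14 and Gm11597, so its low level is uncertain.

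Krt4, the type II partner of Krt13, had 276, 154 and 226 CPM in E18.5 bladder libraries, against 669, 859 and 833 CPM in E18.5 urethral libraries. No bladder library reached a urethral one. The difference was not called over 12 libraries (-1.85 ± 0.89, adjusted p = 0.137), and was called with the replicate block (-1.88, adjusted p = 0.00222). Krt78, a type II keratin of stratified epithelia, had 46.7, 22.5 and 40.8 CPM in E18.5 bladder libraries, against 16.5, 34.5 and 24.2 CPM in E18.5 urethral libraries, and these groups overlapped (0.55 ± 0.57, adjusted p = 0.507). Per kb of exon, Krt4 averaged 102 and Krt13 2.57 CPM per kb in E18.5 bladder libraries, while in E18.5 urethral libraries they averaged 369 and 119 CPM per kb.

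The 3 tested keratins of the cornifying layers were low in all libraries and lower in bladder. Krt10, the type I keratin of the upper epidermis, had 3.96, 5.47 and 5.02 CPM in E18.5 bladder libraries, against 13.8, 27 and 15.4 CPM in E18.5 urethral libraries (-1.96 ± 0.27, adjusted p = 0.000154). Krt1, its type II partner, had 1.16, 1.72 and 1.34 CPM in E18.5 bladder libraries, against 12.2, 6.84 and 12.9 CPM in E18.5 urethral libraries (-2.93 ± 0.38, adjusted p = 9.69e-05). Krt2, of the uppermost living epidermis, had no count in E18.5 bladder libraries and 4.54, 1.48 and 4.73 CPM in the E18.5 urethral ones (adjusted p = 0.000515). If counts are independent, it was at least 98.3-fold lower in bladder against a floor of 3 counts over the group. The libraries of the 2 compartments did not overlap for any of these 3 genes.

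Krt75, of the companion layer of the hair follicle, had 108, 44 and 201 counts (4.28 ± 2.05 CPM) in E18.5 bladder libraries, against 729, 807 and 666 counts (23.7 ± 8.15 CPM) in E18.5 urethral libraries (-2.45 ± 0.74, adjusted p = 0.0242). Krt79, which in mouse marks cells lining the hair canal, had 1.68, 1.39 and 1.63 CPM in E18.5 bladder libraries, against 4.85, 12.1 and 3.21 CPM in E18.5 urethral libraries (-2.09 ± 0.55, adjusted p = 0.0099). Krt23, a type I keratin, had 3.89, 2.9 and 2.24 CPM in E18.5 bladder libraries, against 8.7, 25.9 and 10.7 CPM in E18.5 urethral libraries (-2.32 ± 0.50, adjusted p = 0.00326). The compartments did not overlap for Krt75, Krt79 or Krt23. Krt80, a type II keratin, had 6.62, 9.97 and 8.19 CPM in E18.5 bladder libraries, against 8.1, 16.6 and 8.88 CPM in E18.5 urethral libraries, and Krt222, a keratin-like type I gene, 0.523, 0.751 and 0.576 CPM in E18.5 bladder libraries, against 0.406, 2.42 and 1.9 CPM in E18.5 urethral libraries. Both overlapped between the compartments and were not called (-0.44 ± 0.35, adjusted p = 0.385 and -1.34 ± 0.64, adjusted p = 0.13). Krt36, a hair and nail keratin, was under 1 CPM in every library (-1.92 ± 0.61, adjusted p = 0.0278). Krt75 lost its call without E18.5 bladder replicate 1 or 2 or urethral replicate 2 (adjusted p = 0.0834, 0.0879 and 0.0804), and Krt79 without urethral replicate 2 (-1.36, adjusted p = 0.0694). Without the same library Krt23 differed by -1.69 (adjusted p = 0.0201).

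No basal keratin was called between the compartments at E18.5. Krt5, the type II keratin of basal cells, had 1439, 755 and 1249 CPM in E18.5 bladder libraries, against 714, 984 and 759 CPM in E18.5 urethral libraries (0.49 ± 0.86, adjusted p = 0.716). Krt14, its main type I partner, had 283, 115 and 158 CPM in E18.5 bladder libraries, against 172, 285 and 146 CPM in E18.5 urethral libraries (-0.12 ± 0.54, adjusted p = 0.897). Krt15, a type I keratin of basal and progenitor cells, had 1358, 778 and 1251 CPM in E18.5 bladder libraries, against 1098, 1601 and 1265 CPM in E18.5 urethral libraries (-0.23 ± 0.66, adjusted p = 0.833). The groups overlapped for all 3, and with SEs of 0.54 to 0.86 on the log2 scale a difference of that size was not detectable.

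The promoters of Krt20, Krt13 and Krt5 are shown because these 3 genes mark the superficial, mucosal suprabasal and basal layers and gave the contrast of the E18.5 comparison: higher in bladder, lower in bladder, and not called. Each sequence runs from 250 bases before the RefSeq start of the gene (build GRCm38.p6) to 30 after it, on the minus strand, with matches to the letters TATAAA or ATAAAAG in capitals.
Krt20, chr11:99438124-99438403: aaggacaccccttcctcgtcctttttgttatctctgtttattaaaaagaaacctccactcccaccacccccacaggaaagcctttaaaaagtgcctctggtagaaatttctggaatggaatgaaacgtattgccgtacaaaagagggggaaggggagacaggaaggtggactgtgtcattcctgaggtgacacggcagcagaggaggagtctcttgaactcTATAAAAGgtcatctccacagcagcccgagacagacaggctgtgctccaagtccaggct
Krt13, chr11:100121537-100121816: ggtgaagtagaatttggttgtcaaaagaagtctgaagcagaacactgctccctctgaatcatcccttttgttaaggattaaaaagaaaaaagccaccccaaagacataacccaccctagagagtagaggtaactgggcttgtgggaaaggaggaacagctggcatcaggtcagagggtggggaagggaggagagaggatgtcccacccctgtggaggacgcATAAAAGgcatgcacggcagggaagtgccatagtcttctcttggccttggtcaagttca
Krt5, chr15:101712876-101713155: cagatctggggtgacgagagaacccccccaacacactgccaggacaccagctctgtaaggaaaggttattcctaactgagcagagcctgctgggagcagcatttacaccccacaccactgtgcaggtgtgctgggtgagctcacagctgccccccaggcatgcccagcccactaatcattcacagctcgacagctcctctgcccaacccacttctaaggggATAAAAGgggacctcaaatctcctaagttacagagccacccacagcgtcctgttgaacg
The match begins 29 bases before the start in all 3, and in Krt20 the 2 motifs overlap. Of the 50 keratins, 35 have a window in that table, and windows of 300 bases were searched on both strands. TATAAA occurred in 18 of the 35 (51.4%) and in 13.6% of all 32851 windows, and ATAAAAG, chosen after the sequences were seen, in 13 (37.1%) and in 5.42% of all. GCCNNNGGC, letters bound by AP-2 factors, occurred in 7 (20.0%) and in 16.6% of all windows, and in none of the 3 shown. A match describes letters and not a bound site.

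**Figure D3:**
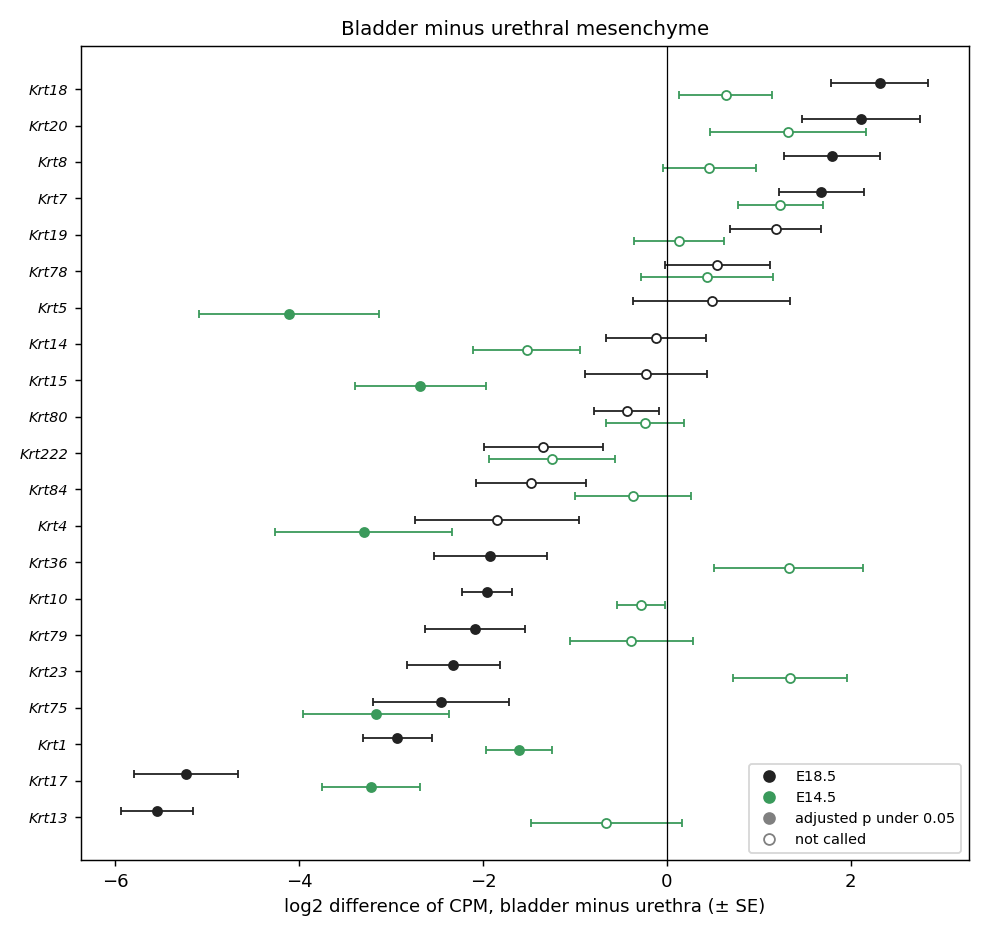
Log2 difference of CPM, bladder minus urethral mesenchyme, with SE bars for 21 tested keratins at E18.5 (black) and E14.5 (green). Filled points are called. Krt18, Krt20, Krt8 and Krt7 lie to the right at E18.5, while Krt13 moves furthest left between E14.5 (-0.66) and E18.5 (-5.55). Krt2, Krt16 and Krt90, with 0 counts in some group, are left out.

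At E14.5, no keratin was called higher in bladder and 8 were called lower (Krt1, Krt2, Krt4, Krt5, Krt15, Krt17, Krt75 and Krt90) of 24 tested, against 12.4% higher and 12.5% lower over all genes. At an unadjusted p under 0.05, 1 keratin (Krt7) was higher in bladder, and DESeq2 called 1. The median difference was -0.52 over the keratins and -0.0035 over all genes. Of these 8, 4 (50%) were also among the 10 lower in bladder at E18.5 (40% of those): Krt1, Krt2, Krt17 and Krt75. The same overlap over all genes was not worked out, so these shares are description only.

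Of the basal keratins, Krt5 and Krt15 were lower in bladder at E14.5. Krt5 had 42.7, 3.73 and 2.12 CPM in E14.5 bladder libraries, against 499, 136 and 199 CPM in E14.5 urethral libraries, with a log2 difference of -4.11 ± 0.98, adjusted p = 0.0129. Krt15 had 144, 32.4 and 14.9 CPM in E14.5 bladder libraries, against 661, 245 and 318 CPM in E14.5 urethral libraries (-2.68 ± 0.71, adjusted p = 0.0202). Krt14 had 9.74, 3.65 and 11.3 CPM in E14.5 bladder libraries, against 44.9, 13.1 and 13.2 CPM in E14.5 urethral libraries. Its groups did not overlap, and it was not called (-1.53 ± 0.58, adjusted p = 0.0804). Bladder replicate 1 was several times above replicates 2 and 3 in Krt5 and Krt15, and urethral replicate 1 was the highest of its group in all 3. Without replicate 1 of both groups the difference of Krt5 was -5.85 (adjusted p = 1.42e-05), that of Krt15 -3.59 (8.97e-05) and that of Krt14 -0.83 (0.256). Without bladder replicate 1 alone, Krt5 differed by -6.58 (7.48e-05) and Krt15 by -4.12 (0.000249), and without urethral replicate 1 alone Krt5 differed by -3.38 (0.0356). Krt15 lost its call without bladder replicate 2 (0.0761) or urethral replicate 1 (0.0616).

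Krt4 had 24.5, 4.85 and 1.77 CPM in E14.5 bladder libraries, against 237, 27.7 and 40.7 CPM in E14.5 urethral libraries (-3.30 ± 0.96, adjusted p = 0.0301). The difference of Krt4 was -4.95 without bladder replicate 1 (adjusted p = 0.00327) and -1.72 without urethral replicate 1 (adjusted p = 0.134), and it also lost its call without bladder replicate 2 (0.105) or 3 (0.0704). Krt13 was near its floor in both compartments, at 0.366, 0.0829 and 0.0865 CPM in bladder and 0.567, 0.105 and 0.22 CPM in urethral libraries, where 3 counts correspond to 0.0825 to 0.14 CPM. Krt78 had 2.97, 0.663 and 0.432 CPM in E14.5 bladder libraries, against 1.85, 0.523 and 0.661 CPM in E14.5 urethral libraries, with overlapping groups.

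Krt17 had 3.52, 1.08 and 3.29 CPM in E14.5 bladder libraries, against 41.5, 14.7 and 17.1 CPM in E14.5 urethral libraries (-3.22 ± 0.54, adjusted p = 0.00214). Krt75 had 3.52, 0.414 and 0.173 CPM in E14.5 bladder libraries, against 16.9, 10.7 and 8.92 CPM in E14.5 urethral libraries (-3.17 ± 0.80, adjusted p = 0.0161), and lost its call without bladder replicate 2 (adjusted p = 0.0547), while without bladder replicate 1 it differed by -5.36 (0.000126). Krt17 differed by -2.60 without urethral replicate 1 (0.00387). The groups did not overlap for Krt17, Krt75 or Krt1. Krt1 had 2.38, 3.27 and 2.77 CPM in E14.5 bladder libraries, against 13.2, 7.25 and 5.32 CPM in E14.5 urethral libraries (-1.61 ± 0.36, adjusted p = 0.00692), and Krt10 7.04, 7.13 and 9.12 CPM in E14.5 bladder libraries, against 8.62, 11.1 and 8.44 CPM in E14.5 urethral libraries. Krt10 overlapped between the compartments and was not called (-0.28 ± 0.26, adjusted p = 0.463). Krt90 had 0 counts in E14.5 bladder libraries and 0.454, 0.262 and 0.367 CPM in urethral ones, at least 8.03-fold lower in bladder if counts are independent (adjusted p = 0.00225). Krt2 had 0.183, 0 and 0 CPM in bladder and 3.1, 0.837 and 1.25 CPM in urethral libraries (adjusted p = 0.00796), and bladder replicate 1 held all the Krt2 counts of its group.

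Simple keratins overlapped between the compartments at E14.5. Krt8 had 312, 94.7 and 58.8 CPM in E14.5 bladder libraries, against 143, 91.7 and 104 CPM in E14.5 urethral libraries (0.46 ± 0.51, adjusted p = 0.536). Krt18 had 194, 53.9 and 45.9 CPM in E14.5 bladder libraries, against 76.6, 52 and 59.8 CPM in E14.5 urethral libraries (0.64 ± 0.51, adjusted p = 0.381). Krt19 had 255, 69.2 and 81 CPM in E14.5 bladder libraries, against 196, 93.4 and 79.8 CPM in E14.5 urethral libraries (0.13 ± 0.49, adjusted p = 0.868). In all 3, bladder replicate 1 was the highest library and the other two bladder libraries lay inside or below the urethral range. Krt7 had 177, 45.6 and 69 CPM in E14.5 bladder libraries, against 60.1, 33.1 and 30.9 CPM in E14.5 urethral libraries (1.24 ± 0.46, adjusted p = 0.0737), and Krt20 3.93, 0.829 and 0.432 CPM in E14.5 bladder libraries, against 0.567, 0.549 and 0.955 CPM in E14.5 urethral libraries (1.32 ± 0.85, adjusted p = 0.283). Without bladder replicate 1 the sign of the difference turned for Krt8 (-0.57), Krt18 (-0.35), Krt19 (-0.73) and Krt20 (-0.12), none of them called. The low keratins Krt23, Krt79 and Krt80 had group means of 0.832, 0.35 and 0.761 CPM in bladder and 0.323, 0.458 and 0.905 CPM in urethral libraries, with no call.

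**Figure D4:**
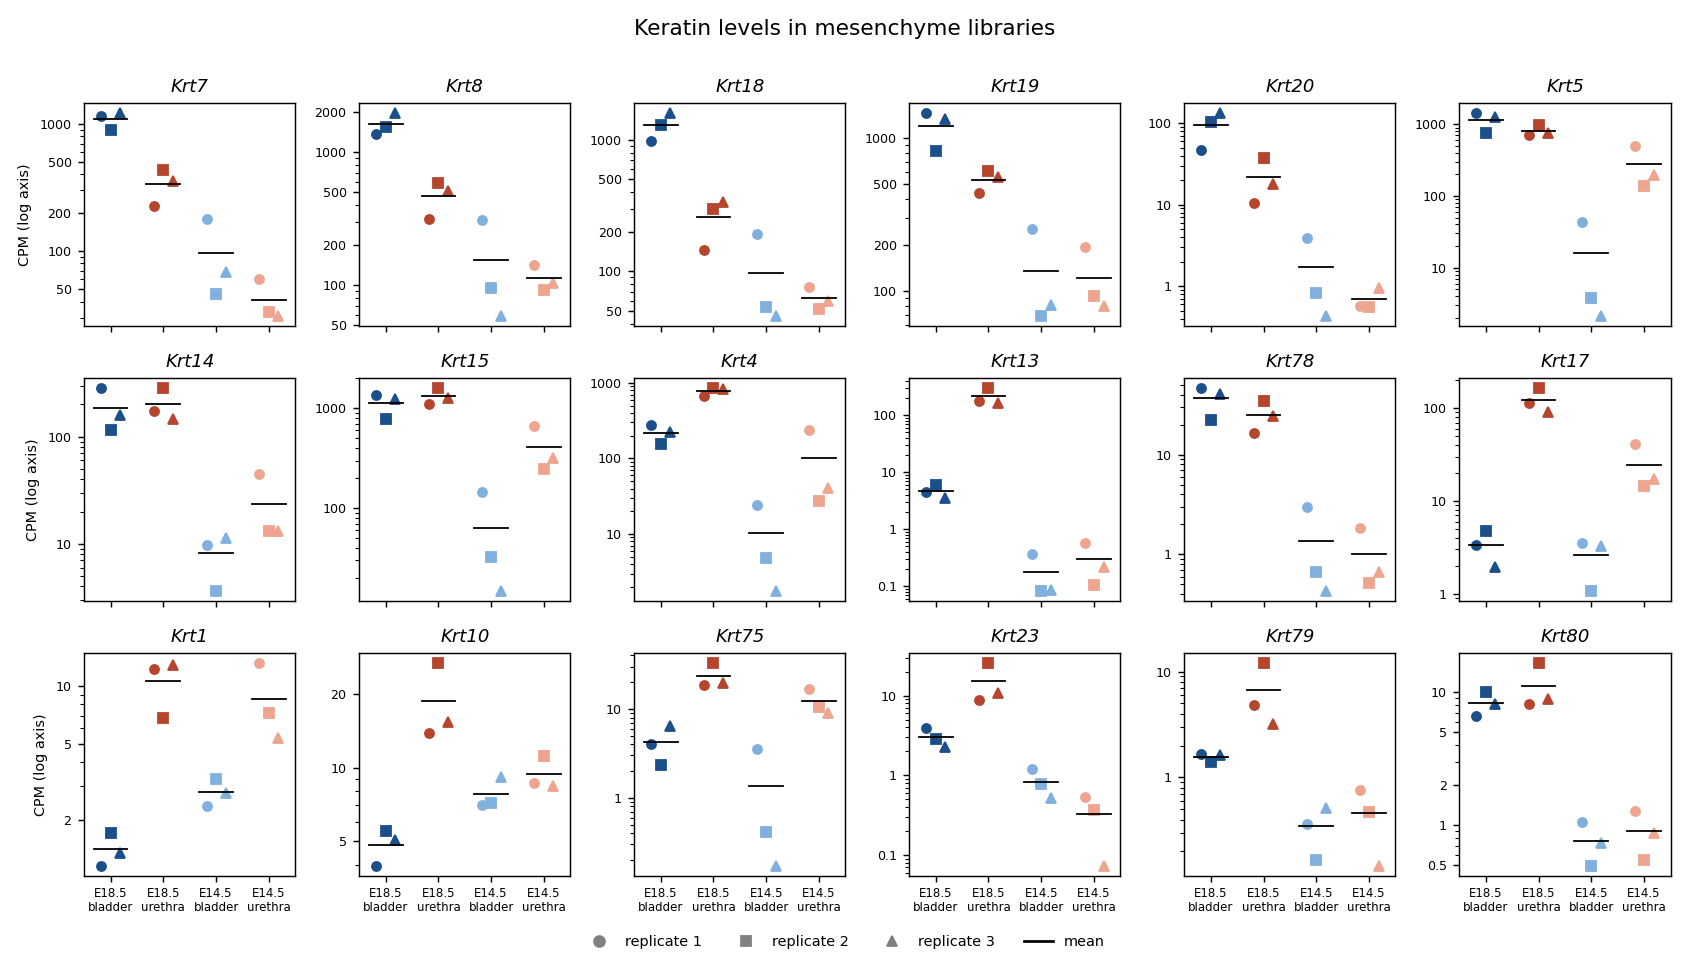
CPM on log axes of the 18 keratins with a mean of at least 5 CPM in some group, in each library, with symbols for replicates and a line at the mean of 3. Krt13 reaches 165.7 to 302.4 CPM in E18.5 urethral libraries and at most 5.95 CPM elsewhere, and Krt5 in E14.5 bladder runs between 2.12 and 42.7 CPM.

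Between the stages, 15 keratins were higher and 1 (Krt1) lower at E18.5 in bladder mesenchyme, against 23.7% and 22% of all genes. In urethral mesenchyme 16 were higher and 0 lower, against 13.6% and 10.8%. The median log2 differences were 3.42 in bladder and 2.22 in urethra over the 24 tested keratins, and -0.023 and -0.055 over all genes. Called higher in both were 12 keratins, 80% of the bladder list and 75% of the urethral list: Krt4, Krt7, Krt8, Krt13, Krt14, Krt18, Krt19, Krt20, Krt23, Krt78, Krt79 and Krt80. Whether genes at large overlap as much was not worked out. At an unadjusted p under 0.05, 0 keratins were lower in urethra, and DESeq2 and limma-voom called 0.

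In bladder mesenchyme, among the keratins with counts in both stages, Krt5 differed most, by 6.15 ± 1.08, adjusted p = 0.00095, followed by Krt20, by 5.79 ± 0.79, adjusted p = 0.000209. Krt14 differed by 4.50 ± 0.64, adjusted p = 0.000268, and Krt15 by 4.15 ± 0.76, adjusted p = 0.00121. Krt8 differed by 3.40 ± 0.55, adjusted p = 0.000598, Krt18 by 3.72 ± 0.56, adjusted p = 0.00037, Krt19 by 3.17 ± 0.53, adjusted p = 0.000733, and Krt7 by 3.48 ± 0.50, adjusted p = 0.000267. The late libraries were above all early ones for each of these 8 genes, the early replicate 1 included. That is description only, since the 8 genes were called on these same libraries. Without E14.5 bladder replicate 1 they differed more, between 4.02 (Krt19) and 8.62 (Krt5); the others were 7.22 for Krt20, 5.59 for Krt15, 4.70 for Krt18, 4.42 for Krt8 and 4.25 for Krt7, and Krt14 stayed within 1.5 times of its value. Krt4 (4.40 ± 1.01, adjusted p = 0.0046), Krt78 (4.77 ± 0.70, adjusted p = 0.000296), Krt80 (3.44 ± 0.42, adjusted p = 5.42e-05), Krt79 (2.16 ± 0.63, adjusted p = 0.0141) and Krt23 (1.85 ± 0.54, adjusted p = 0.0146) were higher too, and without E14.5 bladder replicate 1 Krt4 differed by 6.05 and Krt78 by 6.06. Krt13 was called (4.70 ± 0.56, adjusted p = 7.27e-05) on 8, 2 and 2 counts in the early libraries, and differed by 5.71 without E14.5 bladder replicate 1. Krt90 had 20 counts over the late and 0 over the early libraries, at least 6.01-fold higher if counts are independent (adjusted p = 0.00152).

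Krt1 was lower at E18.5 in bladder, with 1.16, 1.72 and 1.34 CPM in E18.5 bladder libraries, against 2.38, 3.27 and 2.77 CPM in E14.5 bladder libraries (-1.01 ± 0.37, adjusted p = 0.0426), and Krt10 had 3.96, 5.47 and 5.02 CPM in E18.5 bladder libraries, against 7.04, 7.13 and 9.12 CPM in E14.5 bladder libraries (-0.69 ± 0.27, adjusted p = 0.0503). Neither pair of groups overlapped. The call of Krt1 was lost without any 1 of the 3 E18.5 bladder libraries (adjusted p = 0.125, 0.05004 and 0.105), E14.5 bladder replicate 2 or 3 (0.117 and 0.0847), or E18.5 urethral replicate 1 or 3 (0.0527 and 0.0522). Krt17 (0.32 ± 0.55, adjusted p = 0.661) and Krt75 (1.67 ± 0.79, adjusted p = 0.104) overlapped between the stages. Krt23 lost its call without E18.5 bladder replicate 1 (0.0515) or E14.5 replicate 3 (0.0634), and Krt79 without E14.5 replicate 2 (0.056).

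In urethral mesenchyme Krt13 differed most, by 9.58 ± 0.50, adjusted p = 9.65e-06, with 15, 4 and 6 counts in the early libraries. Krt23 (5.52 ± 0.61, adjusted p = 0.000264), Krt20 (5.00 ± 0.81, adjusted p = 0.00202), Krt78 (4.66 ± 0.70, adjusted p = 0.00138) and Krt16 (5.40 ± 0.89, adjusted p = 0.00238) followed. Next came Krt79 (3.86 ± 0.61, adjusted p = 0.00123), Krt80 (3.64 ± 0.41, adjusted p = 0.000267), Krt36 (3.34 ± 0.69, adjusted p = 0.00519), Krt14 (3.09 ± 0.59, adjusted p = 0.00473) and Krt7 (3.03 ± 0.49, adjusted p = 0.00199). In the early urethral libraries Krt16 had 2, 4 and 2 counts and Krt36 had 3, 2 and 0, so the sizes of their differences are uncertain. Krt4 (2.95 ± 0.93, adjusted p = 0.0403), Krt17 (2.33 ± 0.49, adjusted p = 0.00686), Krt19 (2.12 ± 0.51, adjusted p = 0.0133), Krt8 (2.06 ± 0.52, adjusted p = 0.017), Krt18 (2.05 ± 0.52, adjusted p = 0.0174) and Krt10 (0.99 ± 0.26, adjusted p = 0.0163) were the others. Krt80 had 8.1, 16.6 and 8.88 CPM in E18.5 urethral libraries, against 1.29, 0.549 and 0.881 CPM in E14.5 urethral libraries. No early urethral library reached a late one for any of the 16. They were called on these same libraries, and the share of all genes that separate so was not worked out. Without E14.5 urethral replicate 1 the differences were 10.4 for Krt13, 5.41 for Krt78, 4.53 for Krt4, 3.94 for Krt14 and 2.95 for Krt17. Without E18.5 urethral replicate 2 they were 4.88 for Krt23, 4.37 for Krt20, 4.05 for Krt16, 3.13 for Krt79 and 0.64 for Krt10. Of these, only Krt10 lost its call.

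Krt5 (1.56 ± 0.88, adjusted p = 0.225) and Krt15 (1.70 ± 0.68, adjusted p = 0.0954) were not called in urethra, though their libraries did not overlap. Fitted on the urethral libraries alone, Krt5 was called (1.58, adjusted p = 0.0346), and so it was without E14.5 bladder replicate 1 (1.55, adjusted p = 0.0194), which also enters the shared spread. Krt15 was likewise called on the urethral libraries alone (1.72, adjusted p = 0.0115), by limma-voom (1.81, 0.0377) and without E14.5 bladder replicate 1 (1.69, 0.00799) or 3 (1.70, 0.0348), and Krt5 by limma-voom (1.76, 0.0267). Krt75 (0.96 ± 0.70, adjusted p = 0.351), Krt1 (0.31 ± 0.34, adjusted p = 0.537) and Krt2 (1.07 ± 0.68, adjusted p = 0.286) were not called. On the urethral libraries alone Krt75 was called (0.98, adjusted p = 0.0471). Without replicate 1 of both E14.5 groups Krt5 (2.29, 0.000279), Krt15 (2.23, 0.000601), Krt75 (1.27, 0.0307) and Krt2 (1.79, 0.0491) were called. Single libraries decided 5 calls. Krt8 and Krt18 lost theirs without E18.5 urethral replicate 2 or 3 or E14.5 urethral replicate 2 or 3 (adjusted p = 0.0505 to 0.0723 for Krt8 and 0.0584 to 0.0719 for Krt18), Krt19 without E14.5 replicate 2 or 3 (0.0514 and 0.0643), and Krt10 without E18.5 replicate 2 or E14.5 replicate 3 (0.0893 and 0.0705). Krt4 was called in 4 of the 12 fits with 1 library left out: those without 1 of the E14.5 bladder libraries or without E14.5 urethral replicate 1 called it, and the other 8 gave 0.0552 to 0.143.

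**Figure D5:**
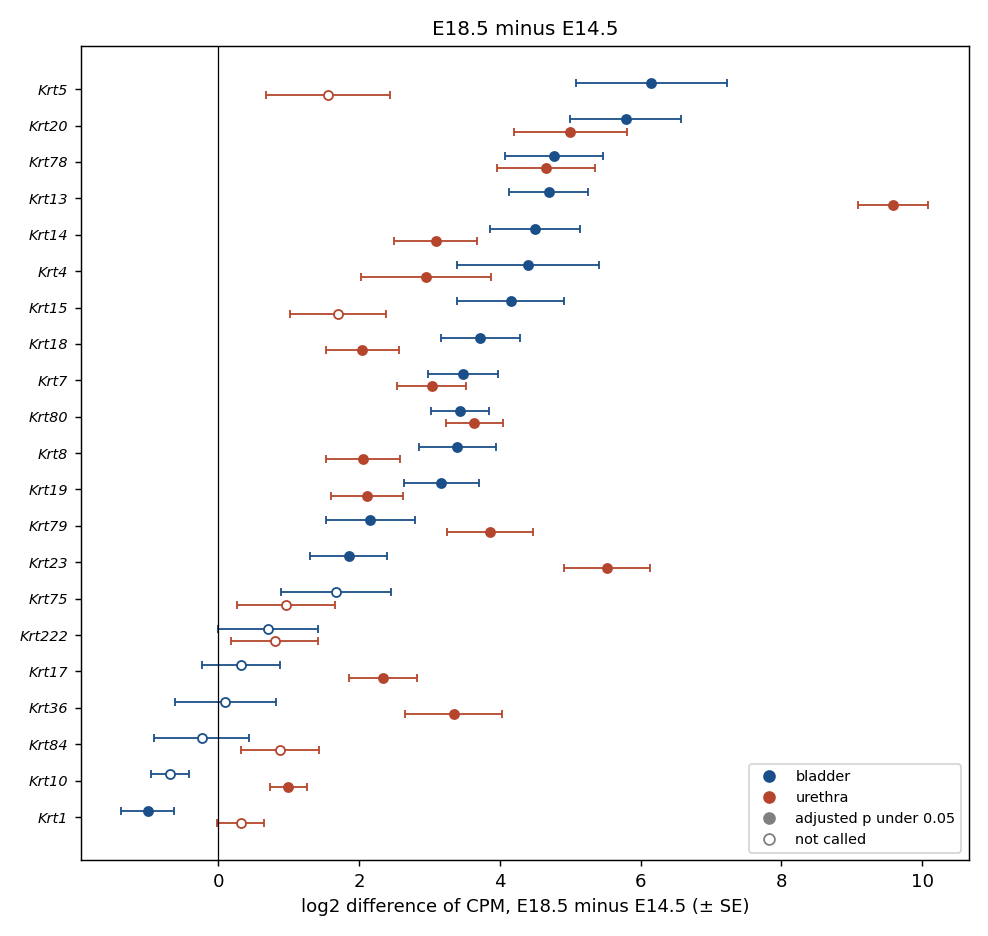
Log2 difference of CPM, E18.5 minus E14.5, with SE bars for 21 tested keratins in bladder (blue) and urethral (red) mesenchyme. Filled points are called. Krt5 is furthest right for bladder (6.15) and Krt13 is furthest right for urethra (9.58), with Krt1 the called point left of 0.

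The change of the bladder-minus-urethra difference between the stages was tested as an interaction. It rose for 1 keratin, Krt90 (5.57 ± 1.28, adjusted p = 0.0242, a value that rests on 0 counts in E14.5 bladder), and fell for 3, Krt13 (-4.89 ± 1.11, adjusted p = 0.0201), Krt23 (-3.67 ± 0.79, adjusted p = 0.0147) and Krt10 (-1.68 ± 0.37, adjusted p = 0.0161). Over all genes, 4.64% rose and 4.03% fell. Krt5 had a change of 4.59 ± 1.28, adjusted p = 0.0505: it was lower in bladder at E14.5 and overlapped with urethra at E18.5. It was called with the replicate block (5.41, adjusted p = 0.00579), by DESeq2 (4.57, 0.00977), by limma-voom (5.57, 0.00567) and without E14.5 bladder replicate 1 (7.07, 0.000335).

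With the block, which pairs the E14.5 libraries by number as well, 4 keratins rose (Krt5, Krt8, Krt15 and Krt18). In that fit 4 fell (Krt10, Krt13, Krt17 and Krt23), and over all genes 5.65% rose and 4.42% fell. Without E14.5 bladder replicate 1, 7 rose (Krt5, Krt8, Krt15, Krt18, Krt19, Krt75 and Krt90), against 7.76% of all genes, and Krt13 was not called (-3.88, adjusted p = 0.156). Without replicate 1 of both E14.5 groups, 6 rose and 6 fell, against 7.39% and 5.48% of all genes. Krt13 was not called there either (-4.71, 0.0685). No keratin rose in the fits without E18.5 bladder replicate 1, E18.5 urethral replicate 1 or 2, E14.5 bladder replicate 2 or 3, or E14.5 urethral replicate 3. Krt23 fell by 3.03 on the log2 scale without E18.5 urethral replicate 2 (adjusted p = 0.0331), and Krt13 fell by 5.72 without E14.5 urethral replicate 1 (0.00936).

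Other epithelial markers moved beside the keratins, and their part in the results was not tested. The 7 urothelium markers, uroplakins among them, summed to 5990 ± 978 CPM in E18.5 bladder and 1083 ± 361 CPM in E18.5 urethral libraries, and to 332 ± 350.3 CPM in E14.5 bladder and 119.9 ± 68.4 CPM in E14.5 urethral libraries (131.7 and 80.8 CPM without replicate 1 of both groups). At E18.5, 6 of 7 were higher in bladder and 0 lower, against 18.52% and 16.2% of all genes, led by Upk3a (3.16 ± 0.83, adjusted p = 0.0127) and Upk2 (3.10 ± 0.66, adjusted p = 0.00376). At E14.5, 3 of 7 were higher (Psca, Upk3a and Upk2), against 12.4% of all genes. Bladder replicate 1 was far above the other bladder libraries in all 3. Psca had 74.05, 9.7 and 3.16 CPM in E14.5 bladder and 6.505, 1.15 and 0.9545 CPM in E14.5 urethral libraries. Upk2 had 86.9, 27.2 and 11 CPM against 14.9, 9.84 and 5.43 CPM, and both genes overlapped. The lowest Upk3a bladder library (10.6 CPM) barely exceeded the highest urethral one (10.55 CPM). Of the 6 mesothelium markers, 5 were higher in bladder at E18.5 and 4 at E14.5, against 18.52% and 12.4% of all genes. Lrrn4 (7.0 ± 0.76, adjusted p = 6.5e-05) and Pkhd1l1 (6.88 ± 0.70, adjusted p = 3.59e-05) led at E18.5. The 6 markers summed to 1113 ± 119.7 CPM in E18.5 bladder and 129 ± 31.8 CPM in E18.5 urethral libraries, and to 313 ± 189 CPM in E14.5 bladder and 62 ± 29.8 CPM in E14.5 urethral libraries. The urethral sums came nearly all from other members than Lrrn4 and Pkhd1l1. Those 2 averaged 0.906 and 0.422 CPM in E18.5 urethral and 1.84 and 1.12 CPM in E14.5 urethral libraries. In bladder libraries Lrrn4 and Pkhd1l1 averaged 113 and 50.8 CPM at E18.5, and 44.5 and 13.15 CPM at E14.5. Other members thus gave most of the bladder sums too. Which cells the other members came from was not tested.

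Of the 14 general epithelial markers, 1 (Esrp2) was higher and 2 (Cldn3 and Cldn6) lower in bladder at E18.5, and at E14.5 3 were lower (Grhl2, Cldn3 and Cldn6). Over all genes, 18.52% were higher and 16.2% lower in bladder at E18.5, and 12.5% lower at E14.5. With replicate 1 of both E14.5 groups left out, which also changes the spread shared by all comparisons, 9 were higher and 2 lower in bladder at E18.5, against 19.8% and 17.4% of all genes in that fit, and all 14 were lower at E14.5, against 14.49%. The libraries left out had the highest sums of these markers in their groups, so these counts are description only. Of the 11 basal and stratified markers, 1 was higher (Perp) and 3 lower in bladder at E18.5, against the same shares of all genes. The lower ones were Dsg3 (-5.55 ± 0.91, adjusted p = 0.000707), Dsc3 (-3.95 ± 0.42, adjusted p = 2.61e-05) and Pkp1 (-2.86 ± 0.64, adjusted p = 0.00512). Perp and these 3 are all desmosome genes. The list summed to 1284 ± 217 CPM in E18.5 bladder and 1091 ± 97.3 CPM in E18.5 urethral libraries. Without replicate 1 of the E14.5 groups 5 of the 11 were higher and 4 lower, against 19.8% and 17.4% of all genes in that fit. The squamous and cornified list split as well, with 1 of 8 tested members higher and 3 lower in bladder at E18.5. Its sum was larger in bladder, at 1267 ± 174 CPM against 331 ± 122 CPM in E18.5 urethral libraries. Most of the bladder sum came from Sprr1a, which was not called. It had 862, 1126 and 1172 CPM in E18.5 bladder libraries, against 141.5, 316 and 253 CPM in E18.5 urethral libraries, with no overlap. Crnn had 0 counts in E18.5 bladder and 4.47, 14.6 and 4.38 CPM in E18.5 urethral libraries (adjusted p = 0.000709), and Lor (-3.76 ± 0.46, adjusted p = 7.07e-05) and Calml3 (-5.13 ± 1.00, adjusted p = 0.00175) were lower in bladder, while Ivl (2.25 ± 0.73, adjusted p = 0.0338) was higher. Lor, the most abundant of the 3 lower genes, averaged 16.7 ± 2.61 CPM in E18.5 urethral libraries, and Ivl 177 ± 5.4 CPM in E18.5 bladder libraries. Between the stages, 12 of 14 general epithelial markers were higher at E18.5 in bladder and 5 of 14 in urethra, against 23.7% and 13.6% of all genes. Without replicate 1 of the E14.5 groups these numbered 13 and 12, against 24.5% and 15.8% of all genes in that fit. Of the endodermal urethral markers, Foxa2 was lower in bladder at E18.5 (-5.67 ± 0.75, adjusted p = 0.000113) and was under 4 CPM in every library of that stage. The abundant members Foxa1 and Shh averaged 174 ± 32.6 and 133 ± 33.2 CPM in E18.5 bladder and 76.1 ± 9.09 and 70.5 ± 12 CPM in E18.5 urethral libraries, with no call (adjusted p = 0.185 and adjusted p = 0.228), and the list summed to 307 ± 65.6 and 152 ± 16.2 CPM. At E14.5 Foxa2 and Shh were lower in bladder. The 4 hindgut markers summed to 8.88 ± 3.04 CPM in E18.5 bladder and 11.3 ± 0.823 CPM in E18.5 urethral libraries, nearly all from Lgals4 and Vil1, the 2 tested. Vil1 was lower in bladder (-2.45 ± 0.55, adjusted p = 0.00409) and Lgals4 was not called (adjusted p = 0.651). Cdx2 of that list had 0 counts in all 12 libraries, and the nephric and Mullerian duct markers summed to at most 16.9 CPM in a library. The desmosome list had 3 of 10 higher and 3 lower in bladder at E18.5, and the hemidesmosome list 3 of 6 higher, beside 18.52% higher and 16.2% lower over all genes. The smooth muscle markers summed to 32260 ± 9613 CPM in E18.5 bladder and 2531 ± 152 CPM in E18.5 urethral libraries, and to 7041 ± 1035 CPM in E14.5 bladder and 2375 ± 977 CPM in E14.5 urethral libraries.

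Ratios between keratins, and of keratins to other epithelial markers, differed between the compartments in some pairs and overlapped in others. Per kb of exon, Krt8 over Epcam was 8.72 to 12.3 in E18.5 bladder libraries and 2.52 to 4.42 in E18.5 urethral libraries, and 5.54 to 6.52 in E14.5 bladder and 1.73 to 2 in E14.5 urethral libraries. Krt5 over Krt8 was 0.434 to 0.934 in E18.5 bladder and 1.32 to 2.04 in E18.5 urethral libraries, and 0.0321 to 0.122 in E14.5 bladder and 1.32 to 3.12 in E14.5 urethral libraries. At each stage the compartments did not overlap in these 2 ratios. Krt13 over Krt5 was 0.0034 to 0.00951 in E18.5 bladder against 0.263 to 0.371 in E18.5 urethral libraries. At E14.5 it was higher in bladder, at 0.0103 to 0.0492 against 0.000928 to 0.00137 in urethral libraries, on the few early Krt13 counts given above. Krt5 over Trp63, a basal cell factor, overlapped at E18.5, with 37.8 to 42.7 in bladder and 40.4 to 70.2 in urethral libraries, and not at E14.5, with 2.86 to 11.7 in bladder and 18.48 to 35.2 in urethral libraries. Krt20 over Upk2, a uroplakin, overlapped at both stages, with 0.0506 to 0.11 in E18.5 bladder and 0.106 to 0.288 in E18.5 urethral libraries, and 0.0171 to 0.0254 in E14.5 bladder and 0.0213 to 0.0987 in E14.5 urethral libraries. Krt8 over Krt18 stayed between 0.876 and 1.59 in all 12 libraries. Type I over type II keratins, summed per kb, lay between 1.37 and 1.88 in 11 libraries and at 2.28 in E14.5 bladder replicate 3.

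The spread between litters also differed from keratin to keratin. In E14.5 bladder libraries the highest value was 20.2 times the lowest for Krt5, 20.4 times for Krt75, 13.8 times for Krt4, 9.65 times for Krt15 and 5.31 times for Krt8. It was 3.10 times for Krt14, 3.27 times for Krt17, 1.38 times for Krt1 and 1.30 times for Krt10. E14.5 bladder replicate 3 had the lowest Krt5 and Krt15 of all 12 libraries but the highest Krt14 of its group, and its ratio of Krt14 to Krt15 per kb was 0.763, against 0.0682 and 0.113 in replicates 1 and 2. In that library Krt7 over Krt8 was 0.326 and Krt19 over Krt8 1.45, against 0.134 to 0.158 and 0.771 to 0.862 in the other two. Its general epithelial markers summed to 81.8 CPM, the lowest of its group, and its mesothelium markers to 327 CPM, between 117 CPM in replicate 2 and 494 CPM in replicate 1. What these values share was not tested.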

How the data were processed

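The 50 keratins and the marker lists were chosen with earlier results of these data known. The authors deposited raw counts per gene symbol; HISAT2 2.2.1, SAMtools 1.9, bcl2fastq and build GRCm38 are named per the submitters' processing notes, while the counting tool, strand setting and annotation are not given in the sources used here. Per the labels, libraries were poly(A)-selected, directional and read as pairs. Counts were tested with edgeR 4.0.16 (R 4.3.3): filterByExpr with a minimum count of 10, TMM, 4 group means over all 12 libraries, robust quasi-likelihood F tests and Benjamini-Hochberg adjustment over 18805 genes. Keratins with a mean of at least 5 CPM in a group are described by library, those of at least 1 CPM by group values and calls, and up to 3 called members per marker list are named. Alternatives were DESeq2 1.42.0, limma-voom (limma 3.58.1), median-ratio size factors, other filters, only the groups compared, a replicate block and libraries left out. Methods were tested on simulated data. Exon lengths are those deposited with the counts.

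Same-numbered bladder and urethral libraries deviated together at E18.5 (correlations across genes 0.197, 0.193 and 0.286) but not in each pair at E14.5 (0.192, -0.0285 and 0.206). The main fit used no pairing. The replicate block paired libraries by number at both stages. Its E14.5 values and its changes between stages thus rest on a pairing that the E14.5 correlations leave uncertain. No label calls the number a litter. No 2 libraries of 1 group agreed within sampling noise. Totals of 21495169 to 36349777 counts put 3 counts at 0.0825 to 0.14 CPM. That floor covers counting error only and assumes independent counts. In each library the value 2 occurred 2.06 to 2.51 times as often as the value 1, as if both reads of a pair had been counted. Small counts may then stand for fewer fragments, and the fold bounds of Krt2 and Krt90 would be lower. The result of 1 marker gene is not reported here.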

Additional observations from a re-analysis of the deposited data

Results flagged for a closer look

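The bladder-minus-urethra log2 difference changed between the stages, by the interaction term of edgeR's quasi-likelihood test, for 4 keratins, and these are listed for a closer look. It changed by -4.89 for Krt13, by -3.67 for Krt23 and by -1.68 for Krt10. For Krt90 it changed by 5.57, on 0 counts in the E14.5 bladder libraries and at most 20 counts in any library. Krt13 had 8, 2 and 2 counts in E14.5 bladder and 15, 4 and 6 counts in E14.5 urethral libraries, so its early difference rests on few reads. Krt10, at 3.96 to 27.0 CPM in all 12 libraries, is the one with counts well above the floor everywhere. What these 4 changes have in common was not tested.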

How the results depend on the processing

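Of the keratin log2 differences recomputed under an alternative, 1691 kept direction and side of the threshold, 64 gained and 65 lost a call, and 21 turned sign, none of the last called. Median-ratio size factors moved the median of all genes by under 0.05. At E14.5, keratins higher in bladder numbered 1 with DESeq2, 1 with the replicate block (Krt7, 1.07, adjusted p = 0.0217) and 0 to 1 with 1 library left out, and those lower 5 to 9. At E18.5, those higher in bladder numbered 1 with no low-count filter and 1 to 5 with 1 library left out. Keratins lower at E18.5 in bladder numbered 2 with DESeq2, 0 with limma-voom, 2 with a stricter filter, 2 with only the groups compared, 2 with both E14.5 groups cut to replicates 2 and 3, and 0 to 3 with 1 library left out. The difference rose between stages for 2 keratins with DESeq2, 3 with limma-voom, 4 with the block, 6 with the cut and 0 to 7 with 1 library left out. It fell for 6 with the cut and 3 to 5 with 1 left out. The cause was not tested. With 1 library left out, E14.5 differences ran from -0.12 to 1.78 (Krt20), -1.67 to 0.17 (Krt13), -0.73 to 0.64 (Krt19), -0.55 to 0.10 (Krt80), -0.79 to 0.12 (Krt79), -0.85 to 1.19 (Krt78), -0.57 to 0.85 (Krt8) and -0.35 to 0.98 (Krt18). With the cut they were -0.22 (Krt20), -0.22 (Krt19), 0.059 (Krt79), -0.10 (Krt78), -0.36 (Krt8) and -0.18 (Krt18). Krt19 gave -0.014 with limma-voom and -0.010 with the block. With 1 library left out, Krt14 at E18.5 ran from -0.56 to 0.22, and Krt17 between stages in bladder from -0.0596 to 0.61. Depth limits the keratins under 1 CPM and Krt13 at E14.5.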
